A study of Homo sapiens with 11 samples.

Results

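JAK1, JAK2, JAK3, TYK2, SOCS1, SOCS3 and CISH are the Janus kinases and the inhibitors of the suppressor of cytokine signalling (SOCS) family that the immune gene panel of this study carried. They were taken by name, and all 7 were found among the 594 endogenous probes. Of the 7, 6 reached the floor of 20 units of normalized signal in at least 1 group mean and were tested with the 379 probes that did so, and JAK3 did not. The samples came from THP-1, an established human line grown from a monocytic leukaemia, so that every value describes a single line. Macrophages were made from the monocytes with the phorbol ester PMA for 3 h and left to recover for 24 h. Cells of both states then stood for 24 h in charcoal-stripped medium, which holds little steroid, before 6 h with vehicle or with 100 nM dexamethasone (Dex), a synthetic glucocorticoid. RNA (50 ng) was read on the NanoString nCounter, which counts colour-barcoded probes hybridized to each transcript without amplification.

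Monocytes (Mono) and macrophages (Mac) with either treatment make 4 groups. There were 3 samples of Mono_Vehicle, 3 of Mono_Dex, 3 of Mac_Vehicle and 2 of Mac_Dex. The design names 12 samples and 11 were analysed. The authors left out 1 Mac_Dex sample because it grouped with the vehicle macrophages and had no rise of FKBP5, so a response in macrophages is not free of that choice. Nothing in the labels ties the replicates to separate cultures, and p-values then cover only the spread among these samples, possibly a technical one. The study's title asks how glucocorticoids act on monocytes and on macrophages.

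Cytokines and interferons bind receptors that have no enzyme of their own. Janus kinases sit on the receptor tails, phosphorylate them and then phosphorylate the STAT transcription factors, which move to the nucleus. JAK1, JAK2 and TYK2 serve many receptors in most cell types, whereas JAK3 pairs with the common gamma chain and is known mainly from lymphoid cells. STATs switch on SOCS genes in turn, and the SOCS proteins shut the pathway down: SOCS1 and SOCS3 bind and block the kinases, and CISH competes for STAT docking sites on receptors. In macrophages this loop sets how strongly cells answer to interferon gamma, interleukin 6 and interleukin 10. Glucocorticoids act through the glucocorticoid receptor, itself a transcription factor.

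The kinase genes lie on several chromosomes, JAK1 at chr1:64833229-65067746, JAK2 at chr9:4984390-5129948, and JAK3 and TYK2 at chr19:17824782-17847982 and chr19:10350533-10380572 (RefSeq, GRCh38.p14). The inhibitors are short genes, SOCS1 at chr16:11254417-11256204, SOCS3 at chr17:78356778-78360925 and CISH at chr3:50606489-50611774. Promoter windows from RefSeq (GRCh38.p14), 250 bases before to 50 after a start, were at hand for all 7 genes, 13 windows in all. Those of the 3 inhibitors follow here, since these genes had the largest log2 differences between the cell states with vehicle, as the 250 bases before the start on the minus strand, 5′ to 3′. They are chr16:11256205-11256454 for SOCS1, chr17:78360926-78361175 for SOCS3 (the first of its starts listed) and chr3:50611775-50612024 for CISH. Capitals mark matches to TTCNNNGAA, the usual STAT-binding letters, or to GAAANNGAAA, the core of interferon-response elements.
SOCS1: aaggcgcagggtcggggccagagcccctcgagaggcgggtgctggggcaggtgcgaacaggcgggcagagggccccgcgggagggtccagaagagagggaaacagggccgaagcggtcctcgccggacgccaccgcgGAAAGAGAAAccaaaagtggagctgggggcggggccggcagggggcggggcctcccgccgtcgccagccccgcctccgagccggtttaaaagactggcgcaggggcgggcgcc
SOCS3: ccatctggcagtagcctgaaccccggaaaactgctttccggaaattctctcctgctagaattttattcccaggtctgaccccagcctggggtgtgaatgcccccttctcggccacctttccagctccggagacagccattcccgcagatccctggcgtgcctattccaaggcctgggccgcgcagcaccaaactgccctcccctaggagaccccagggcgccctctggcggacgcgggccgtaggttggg
CISH: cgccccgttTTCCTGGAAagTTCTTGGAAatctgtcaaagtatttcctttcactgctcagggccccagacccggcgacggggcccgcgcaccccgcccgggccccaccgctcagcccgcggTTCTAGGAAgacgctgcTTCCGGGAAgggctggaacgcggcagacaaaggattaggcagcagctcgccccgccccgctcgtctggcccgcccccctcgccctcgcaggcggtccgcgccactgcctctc

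The CISH window held TTCNNNGAA 4 times, at TTCCTGGAA, TTCTTGGAA, TTCTAGGAA and TTCCGGGAA, from 241 to 104 bases before the start. The SOCS1 window held GAAANNGAAA once, as GAAAGAGAAA, and no TTCNNNGAA, and the SOCS3 window held neither. Of 35116 promoter windows of the same length, 7.66% held TTCNNNGAA and 3.57% held GAAANNGAAA. The glucocorticoid receptor palindrome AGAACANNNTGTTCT was in none of the 13 windows and in 0.0028% of all. Its left arm alone, AGAACA, which every match to the palindrome also holds, was in 14.8% of all windows and, among the 7 genes, in that of TYK2. All motifs were searched on both strands and were chosen with these windows in view. A match describes the letters, and a missing match says only that they are not in that window.

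The level of FKBP5 went with the treatment label in each of the 11 samples analysed. For Mac_Dex this was set in advance, since the sample that the authors left out had no rise of FKBP5. FKBP5, which encodes an immunophilin bound to that receptor and is a standard target of it, was at 1237 ± 27.9 units in Mono_Vehicle and 24908 ± 79.2 in Mono_Dex (SD, n = 3 each), and at 488 ± 117 in Mac_Vehicle (n = 3) and 37671 ± 516 in Mac_Dex (n = 2). Of 9 myeloid markers on the panel, 7 reached the floor in each monocyte group and 8 in both macrophage groups. The 7 were not the same genes: with Dex in monocytes CD14 went from 53.5 to 18.3 units and CD163 from 1 to 39.3. The summed level of the 9 lay between 2567 and 2685 units in monocytes, and between 16798 and 20807 in macrophages. FCGR1A/B went the other way, from 162 units in Mono_Vehicle to 70.0 in Mac_Vehicle, and MRC1, the mannose receptor, stayed at or under 2.71. Markers that define other lineages were near 0: CD3D was at most 4.23, MS4A1 3.36, KLRD1 1.52 and CEACAM8 5.08. Some genes of the lymphoid lists were present, among them CD4, PAX5, NCAM1, GNLY and GZMA. The summed NK list ran from 1616 to 1650 units in Mono_Vehicle, 1966 to 2120 in Mono_Dex, 3318 to 3753 in Mac_Vehicle and 4061 to 4094 in Mac_Dex, and its part in the results below was not tested.

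Summed over the panel, monocyte samples held 372345 to 420466 units and macrophage samples 742895 to 889658, from net counts before scaling of 412533 to 565410 and 551918 to 675202. The factor between deposited values and net counts lay between 0.659 and 0.965 for monocytes, and between 1.21 and 1.52 for macrophages. On the deposited scale the median tested probe was higher in macrophages than in monocytes, by 0.72 (log2) with vehicle and 0.75 with Dex, whereas the Dex comparisons are centred near 0, at -0.03 in both states. Levels are given below in deposited units. The values carry a factor per sample and none per probe, so no level of a gene is set against that of another.

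**Figure D1:**
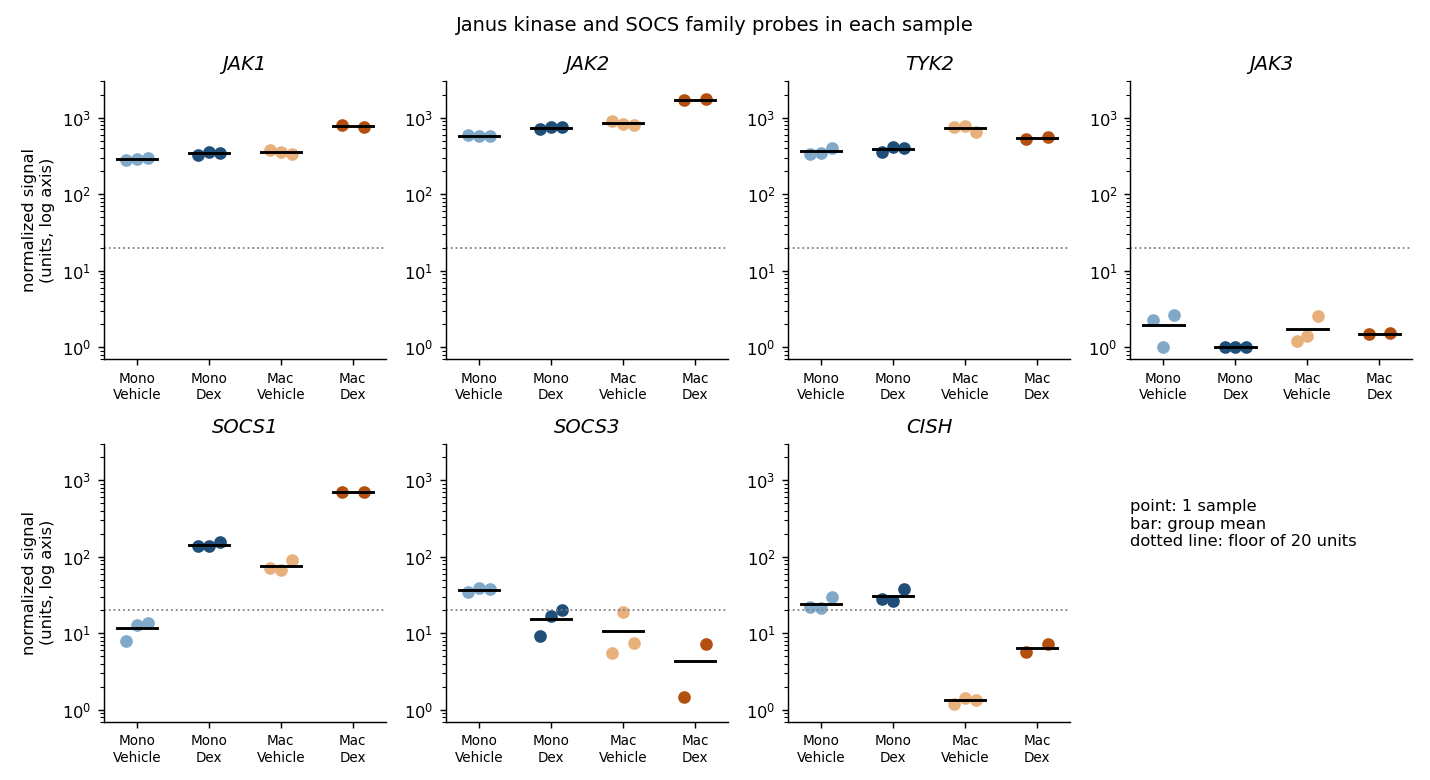
Normalized signal (units, log axis) of each of the 7 genes in each of the 11 samples, by group; points are samples, bars are group means and the dotted line is the floor of 20 units. SOCS1 lies at 8.01 to 13.8 units in Mono_Vehicle and at 695 and 711 in Mac_Dex, JAK1 and JAK2 are highest in Mac_Dex, and JAK3 lies under the floor in every sample.

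Dex raised JAK1 and JAK2 in both cell states, and more in macrophages. JAK1, the kinase used by interferon, interleukin 6-type and common gamma chain receptors, measured 279, 286 and 293 units in the 3 Mono_Vehicle samples and 328, 357 and 347 in Mono_Dex. It measured 375, 355 and 338 units in Mac_Vehicle and 804 and 748 in Mac_Dex. Each Dex sample lay above each vehicle sample of its state, and the Mac_Dex samples stood clear of all the others. The means were 286 ± 7.16, 344 ± 14.7, 356 ± 18.4 and 776 ± 39.5 units in the order Mono_Vehicle, Mono_Dex, Mac_Vehicle and Mac_Dex (SD). Mono_Dex and Mac_Vehicle, neighbours in that order, overlapped. JAK1 was 1.20-fold higher with Dex in monocytes (log2 change 0.26, SE 0.07, adjusted p = 0.00904, limma) and 2.18-fold higher in macrophages (1.12, SE 0.08, adjusted p = 4.39e-08, limma). In a fit with a term for the replicate number, the monocyte change was 0.30 and missed the threshold (adjusted p = 0.0618, limma). In RNA from whole cultures, a change in the share of cells that make a transcript and a change in RNA per cell cannot be told apart.

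JAK2, the kinase of the receptors for interferon gamma, GM-CSF and interleukin 3, followed the same order of groups. Its signal was 596, 572 and 567 units in Mono_Vehicle, 713, 748 and 744 in Mono_Dex, 898, 825 and 797 in Mac_Vehicle, and 1691 and 1722 in Mac_Dex. No 2 groups overlapped, and the Mac_Dex samples again stood far above the rest. The means were 578 ± 15.6, 735 ± 19.2, 840.0 ± 51.7 and 1707 ± 21.9 units. The rise with Dex was 1.27-fold in monocytes (log2 change 0.35, SE 0.06, adjusted p = 0.000197, limma) and 2.03-fold in macrophages (1.02, SE 0.06, adjusted p = 8.34e-09, limma).

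The interaction term, which tests the difference of the responses, was past the threshold for both kinases. On the log2 scale the macrophage response exceeded the monocyte response by 0.86 for JAK1 (95% confidence interval 0.63 to 1.09, adjusted p = 3.57e-05, limma) and by 0.68 for JAK2 (0.50 to 0.86, adjusted p = 3.23e-05, limma). These differences were called in each of the 19 alternative settings run for them, among them each scaling and each sample left out, with values of 0.81 to 0.94 and 0.55 to 0.76.

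TYK2, the partner kinase of the type I interferon, interleukin 10 and interleukin 12 receptors, moved otherwise. It measured 331, 349 and 402 units in Mono_Vehicle and 350, 409 and 395 in Mono_Dex, where the groups overlapped. It measured 742, 776 and 641 units in Mac_Vehicle and 532 and 550 in Mac_Dex, where both Dex samples lay under all 3 vehicle samples. The means were 361 ± 36.7, 384 ± 30.8, 720.1 ± 70.2 and 541 ± 12.2 units. In monocytes the log2 change was 0.09, with an interval from -0.11 to 0.29 (adjusted p = 0.478, limma). In macrophages TYK2 was 1.33-fold lower with Dex (log2 change -0.41, SE 0.10, adjusted p = 0.00486, limma). Centring each sample on its median, which moves the median of all probes to 0.19 in that comparison, took the TYK2 change to -0.18 (adjusted p = 0.159, limma).

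The TYK2 response in macrophages was lower than that in monocytes by the interaction term, at -0.50 (interval -0.80 to -0.20, adjusted p = 0.0186, limma). That call was lost without Mac_Vehicle replicate 3 (-0.44, adjusted p = 0.0530, limma) and without Mac_Dex replicate 1 (-0.48). It was also lost in a fit with a term for the replicate number (-0.45, adjusted p = 0.117, limma).

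JAK3 measured 1.00 to 2.61 units over the 11 samples, with all 3 Mono_Dex samples at 1.00, the lowest value found in any monocyte sample. All 11 lie under the floor and under the highest negative control of the series, 15.6 units before any sample factor, so no level or change of JAK3 was measurable at this depth.

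**Figure D2:**
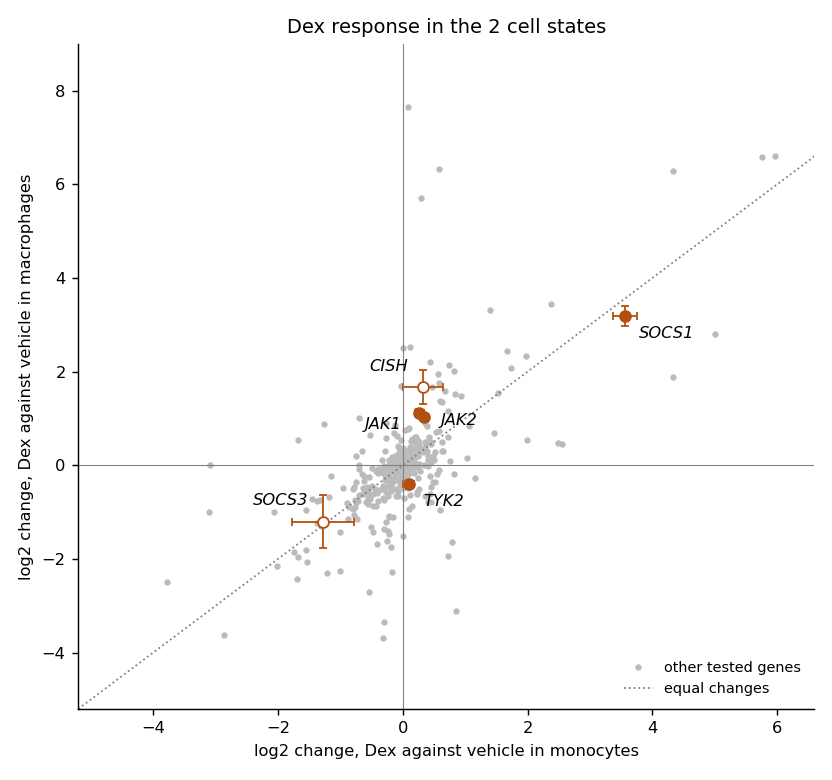
Log2 change with Dex in macrophages (vertical) against that in monocytes (horizontal), on the log2(value + 1) scale, for the 6 tested genes (orange, ± SE, open where both macrophage groups lie under the floor) and the other tested probes (grey); the dotted line marks equal changes. JAK1 at 0.26 and 1.12 and JAK2 at 0.35 and 1.02 lie above the line, TYK2 at 0.09 and -0.41 lies below it, and SOCS1 lies at 3.56 and 3.19.

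A ratio of a pair of probes within a sample does not depend on the factor of that sample, so it shows unequal change whatever the scaling. These ratios were added after the values were seen and carry no test, and only their change between groups can be read. The log2 ratio of JAK1 to JAK2 stayed in a narrow range, with means of -1.02 ± 0.07 in Mono_Vehicle, -1.10 ± 0.03 in Mono_Dex, -1.24 ± 0.02 in Mac_Vehicle and -1.14 ± 0.09 in Mac_Dex. The ratio of JAK1 to TYK2 was -0.33 ± 0.11 and -0.16 ± 0.06 in monocytes with vehicle and Dex, and -1.01 ± 0.11 and 0.52 ± 0.11 in macrophages. That of JAK2 to TYK2 was 0.69 ± 0.18, 0.94 ± 0.08, 0.23 ± 0.12 and 1.66 ± 0.01 in the same order. In both ratios to TYK2, Mac_Vehicle was the lowest group and Mac_Dex the highest, with no overlap between either and any other group. For JAK1 to JAK2, Mac_Vehicle was also the lowest group, at -1.26 to -1.22, with the nearest other sample, of Mac_Dex, at -1.20.

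**Figure D3:**
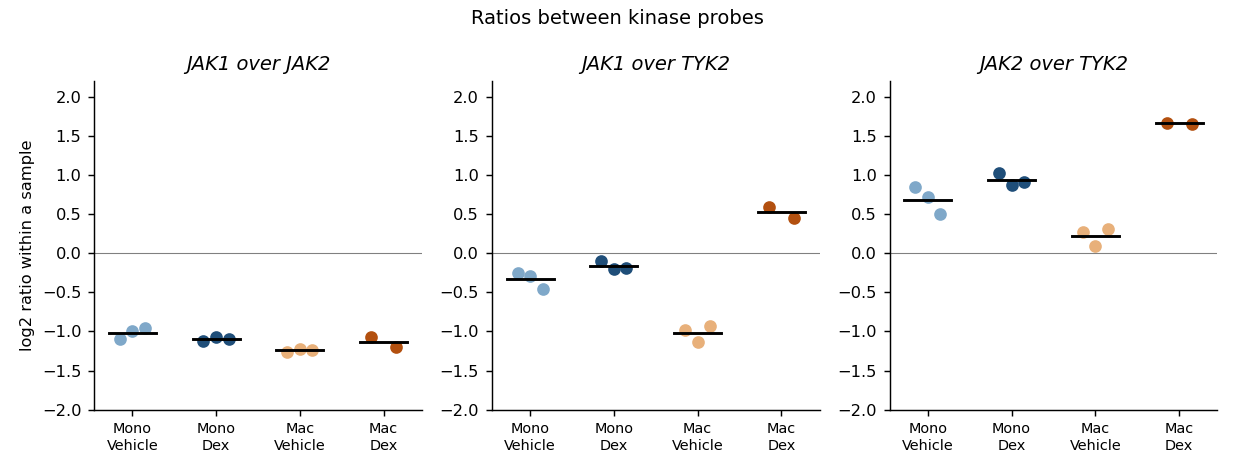
Log2 ratio of the signals of 2 kinase probes within each sample, by group; points are samples and bars are group means. JAK1 over TYK2 goes from -1.01 in Mac_Vehicle to 0.52 in Mac_Dex and JAK2 over TYK2 from 0.23 to 1.66, whereas JAK1 over JAK2 runs only from -1.24 to -1.02 over the 4 group means.

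SOCS1, the inhibitor that blocks JAK1, JAK2 and TYK2, rose most of the 6 tested genes with Dex in both states. It measured 8.01, 12.9 and 13.8 units in Mono_Vehicle, all under the floor, and 138, 139 and 155 in Mono_Dex. It measured 72.3, 67.6 and 90.4 units in Mac_Vehicle and 695 and 711 in Mac_Dex. The 4 groups did not overlap, and their order ran from Mono_Vehicle over Mac_Vehicle and Mono_Dex to Mac_Dex. The means were 11.6 ± 3.12, 76.8 ± 12.0, 144 ± 9.56 and 703 ± 10.7 units in that order.

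Against the floor, SOCS1 was at least 7.22-fold higher with Dex in monocytes (log2 change 3.56, SE 0.20, adjusted p = 4.1e-09, limma). In macrophages, where both groups were measured above the floor, it was 9.16-fold higher (3.19, SE 0.22, adjusted p = 3.11e-08, limma). Both rises were called in all 20 alternative settings, with monocyte values of 2.97 to 3.71 and macrophage values of 3.08 to 3.41. The difference of the responses was -0.37 with an interval from -1.01 to 0.27 (adjusted p = 0.407, limma), an interval that runs from a larger rise in monocytes to a larger rise in macrophages. It changed sign, to 0.11, with a pseudocount of 8, where the vehicle level of monocytes is under the floor.

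In macrophages, where SOCS1 was above the floor in both groups, its log2 ratio to JAK1 within a sample went from -2.22 ± 0.28 with vehicle to -0.14 ± 0.10 with Dex. The ratio to JAK2 went from -3.46 ± 0.28 to -1.28 ± 0.003. The vehicle and Dex samples were apart in both ratios, which carry no test.

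SOCS3, the inhibitor best known from interleukin 6 and G-CSF signalling, was low in all groups. It measured 34.7, 38.8 and 38.2 units in Mono_Vehicle and 9.25, 16.8 and 20.4 in Mono_Dex. Each Mono_Dex sample lay under each Mono_Vehicle sample, by at least 1.86-fold in the means (37.2 ± 2.21 against 15.5 ± 5.66), yet the change missed the threshold (log2 change -1.28, SE 0.50, adjusted p = 0.0597, limma). The same change was called in 6 of its 19 alternatives, among them a pseudocount of 8 (-0.98, adjusted p = 0.0105, limma) a fit of the 2 monocyte groups alone (adjusted p = 0.0134, limma) and the fits without Mac_Vehicle replicate 3, Mac_Dex replicate 1 or Mac_Dex replicate 5 (adjusted p = 0.0369, 0.0242 and 0.0254, limma). In macrophages SOCS3 measured 5.58, 19.3 and 7.46 units with vehicle and 1.47 and 7.27 with Dex, all under the floor. Those groups overlapped, and no fold is given for them. The fitted change of -1.20 missed the threshold (adjusted p = 0.0941, limma), and was called in 3 alternatives, without Mac_Vehicle replicate 1 (-1.54), without Mac_Dex replicate 5 (-2.08) and with quantile normalization (-1.13). The difference of the SOCS3 responses was 0.08 with a wide interval, from -1.55 to 1.70 (adjusted p = 0.943, limma).

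CISH, which is switched on by STAT5 and dampens interleukin 2, interleukin 3 and GM-CSF receptors, was above the floor in monocytes and not in macrophages. It measured 22.3, 21.3 and 29.6 units in Mono_Vehicle and 28.4, 26.4 and 37.4 in Mono_Dex. The groups overlapped, and the log2 change of 0.32 missed the threshold (interval -0.36 to 1.01, adjusted p = 0.476, limma). In macrophages it measured 1.21, 1.42 and 1.36 units with vehicle and 5.66 and 7.27 with Dex. The fit called this a rise (log2 change 1.67, adjusted p = 0.00133, limma), but all 5 values lie under the floor, and with quantile normalization the change was 0.18 (adjusted p = 0.694, limma). The call was also lost when only the 2 macrophage groups were fitted (adjusted p = 0.0980, limma). The difference of the CISH responses missed the threshold (1.35, adjusted p = 0.0534, limma) and passed it in 4 alternatives. These were median-centring (1.43, adjusted p = 0.0374, limma), housekeeping scaling (1.32, adjusted p = 0.0379, limma), a fit with no mean-variance trend (adjusted p = 0.00396, limma) and the fit without Mono_Dex replicate 6 (adjusted p = 0.0481, limma). With quantile normalization it turned to -0.14.

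Counted over the 6 tested genes, 3 rose with Dex in monocytes (JAK1, JAK2, SOCS1) and 0 fell in limma, with 4 at an unadjusted p under 0.05, where 39.1% of all tested probes were called, 16.9% as rises and 22.2% as falls. Vehicle and Dex samples did not overlap for 4 of the 6 in monocytes (those 3 and SOCS3), and for 54.6% of all tested probes. In macrophages 4 were called as rises (JAK1, JAK2, SOCS1 and, under the floor, CISH) and TYK2 as a fall, where 47.5% of all tested probes were called, 22.4% as rises and 25.1% as falls. There the groups did not overlap for 5 of the 6, and for 58.6% of all tested probes. The median log2 change of the 6 was 0.29 in monocytes and 1.07 in macrophages, beside -0.03 over all tested probes in each state. The difference of the responses was called for 3 of the 6, with 25.9% of all tested probes called (13.5% higher, 12.4% lower).

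Between the cell states with vehicle, the direction of JAK1 and JAK2 and the call of TYK2 depended on the scaling, and the directions of the 3 inhibitors did not. JAK1 was 1.24-fold, JAK2 1.45-fold and TYK2 2.00-fold higher in macrophages on the deposited scale (log2 changes 0.31, 0.54 and 1.00), against a median of 0.72 over all probes. With median-centring and with quantile normalization JAK1 turned to -0.60 and -0.62 and JAK2 to -0.38 and -0.40, and TYK2 was not called at 0.08 and 0.13. Scaling to 15 housekeeping genes left JAK1 at 0.07 (adjusted p = 0.324, limma). No direction between the states can therefore be given for JAK1 and JAK2 with vehicle.

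With Dex, JAK1 was 2.26-fold and JAK2 2.32-fold higher in macrophages, and both kept that direction and call under all 3 other scalings, though at 0.28 to 0.90 and 0.15 to 0.94 (log2) in place of 1.17 and 1.21. TYK2, at 1.41-fold higher (log2 change 0.49), turned to -0.34 and -0.35 with median-centring and quantile normalization. JAK1 and JAK2 thus had a direction between the states with Dex, and TYK2 had none.

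SOCS1 was higher in macrophages with vehicle, by at least 3.84-fold (log2 change 2.65, adjusted p = 1.27e-08, limma), and with Dex, by 4.87-fold (2.28, adjusted p = 2.68e-07, limma). Both calls were kept under the other scalings, at 1.39 to 2.41 and at 1.37 to 2.00. CISH was lower in macrophages by at least 1.22-fold with vehicle (-3.43, adjusted p = 1.44e-07, limma) and at least 1.54-fold with Dex (-2.08, adjusted p = 9.23e-05, limma). SOCS3 was lower by at least 1.86-fold with vehicle (-1.87, adjusted p = 0.00323, limma). SOCS3 passed the filter of 20 units only through Mono_Vehicle, and CISH only through the monocyte groups. Their falls against those groups are therefore not independent of the filter. With Dex both SOCS3 groups were under the floor (-1.80), and the call was lost without Mac_Dex replicate 1 (-0.93, adjusted p = 0.165, limma). In each state comparison 6 of 6 tested genes were called, 4 higher and 2 lower, where 84.7% of all tested probes were called with vehicle (65.2% higher, 19.5% lower) and 79.7% with Dex (61.7% higher, 17.9% lower). With median-centring and with vehicle, SOCS1 alone was higher and 4 were lower (JAK1, JAK2, SOCS3, CISH), and with Dex 3 were higher and 3 lower. The shares of all tested probes given here are on the deposited scale. The states did not overlap for any of the 6, nor for 85.0% of all tested probes with vehicle and 85.8% with Dex.

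**Figure D4:**
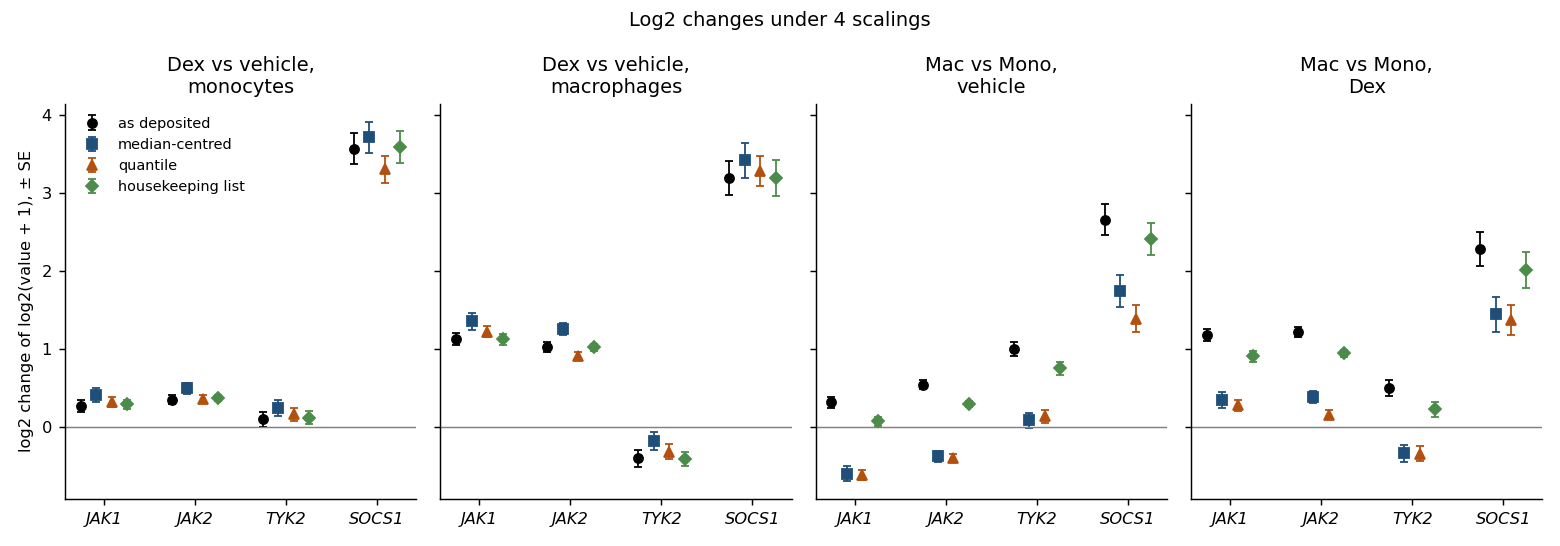
Log2 change on the log2(value + 1) scale (± SE) of JAK1, JAK2, TYK2 and SOCS1 in the 4 comparisons, as deposited and under 3 other scalings. The Dex changes of JAK1, JAK2 and SOCS1 keep their sign, whereas JAK1 and JAK2 between states with vehicle go from 0.31 and 0.54 as deposited to -0.62 and -0.40 with quantile normalization.

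Of the genes around these kinases, the lists of receptors, ligands, STATs, further inhibitors and interferon target genes were described in the same fit. The panel carried 18 of the 35 listed JAK-coupled receptors, and 14 were tested. With Dex in monocytes 3 of the 14 rose and 4 fell, where 16.9% of all tested probes rose and 22.2% fell. In macrophages 3 rose and 6 fell, where 22.4% of all rose and 25.1% fell. With median-centring the counts became 5 and 3 in monocytes, and 4 and 4 in macrophages. The shares of all probes are those on the deposited scale, and none is given for median-centring, here or below. Median log2 changes were 0.02 and -0.13. IL13RA1, the interleukin 13 receptor chain that pairs with IL4R and signals through JAK1 and TYK2, rose 2.09-fold in monocytes and 1.80-fold in macrophages. IFNGR1, the ligand-binding interferon gamma receptor chain that carries JAK1, rose 2.04-fold in monocytes and by 0.15 (log2) in macrophages, a difference of responses of -0.88 (adjusted p = 1.05e-06, limma).

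IL6ST, the shared gp130 chain of the interleukin 6 family, rose 1.54-fold in macrophages, and its monocyte change of -0.09 missed the threshold (difference 0.71, adjusted p = 0.000120, limma). IL7R fell by at least 4.54-fold in monocytes and 1.98-fold in macrophages, the latter without a call when Mac_Dex replicate 1 was left out. IL10RA, which carries JAK1 in the interleukin 10 receptor, fell 1.55-fold in monocytes and 1.27-fold in macrophages. Its difference of responses was not called (0.28, adjusted p = 0.124, limma). CSF2RB, the common beta chain that carries JAK2, fell 1.40-fold in monocytes and 2.63-fold in macrophages (difference -0.94, adjusted p = 0.0112, limma). With vehicle, 11 of the 14 receptors were higher in macrophages and 1 lower (65.2% and 19.5% of all tested probes, on the deposited scale). The counts were 7 and 6 with median-centring. Among the 14, IFNGR1 was 4.42-fold and IL2RG 4.44-fold higher and CSF3R 3.65-fold lower.

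All 7 STATs were tested. STAT3, which interleukin 6 and interleukin 10 activate, rose with Dex 1.31-fold in monocytes and 1.24-fold in macrophages. In macrophages STAT3 alone of the 7 was called with Dex on the deposited scale, where 47.5% of all tested probes were called. The median log2 changes were -0.04 and 0.03, so the STAT list as a whole lay close to the median of all probes. With vehicle 6 STATs were higher in macrophages and STAT4 was at least 1.26-fold lower, where 65.2% of all tested probes were higher and 19.5% lower. STAT4 passed the filter only through Mono_Vehicle. STAT5A was 3.82-fold and STAT2 3.29-fold higher. With median-centring 4 STATs were higher and 3 lower.

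Of 17 further inhibitors listed, 3 were on the panel. BCL6, a repressor that binds STAT-type sites, was 1.56-fold higher with Dex in monocytes and 1.95-fold lower in macrophages (difference -1.56, adjusted p = 0.000572, limma). The monocyte call was lost without Mono_Vehicle replicate 1, Mono_Dex replicate 3 or Mono_Dex replicate 6. BCL6 was 19.8-fold higher in macrophages than in monocytes with vehicle. PTPN2, a phosphatase that acts on JAK1 and JAK3, was 1.21-fold lower with Dex in macrophages, a call lost with median-centring and without Mac_Dex replicate 1, and higher in macrophages with vehicle (log2 change 0.33), which turned to -0.58 with median-centring. PTPN6, a phosphatase of haematopoietic cells, was not called with Dex (0.14 and -0.06).

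Of 29 ligands of these receptors on the panel, 3 reached the floor. The mean of IL15 was at least 2.13-fold higher, from Mac_Dex samples at 21.8 and 63.5 units, the lower of them close to the floor, and LIF was at least 1.30-fold lower with Dex in macrophages, and IL23A was 1.74-fold lower in monocytes, a call lost with median-centring and without any of 4 monocyte samples in turn. IL6, IL10, IFNB1 and IFNG were among the 26 under the floor in all groups. Ligands with vehicle included LIF, at least 1.30-fold higher in macrophages, and IL15, under the floor in both states. LIF passed the filter only through Mac_Vehicle and IL15 only through Mac_Dex.

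Interferon target genes, which read out the activity of STATs, were on the panel for 22 of 26 listed, and 19 were tested. In monocytes 0 rose and 5 of the 19 fell with Dex in limma, where 16.9% of all tested probes rose and 22.2% fell. At an unadjusted p under 0.05 in limma there were 9, in either direction. MX1 fell 2.24-fold and IRF8 1.74-fold. In macrophages 0 rose and 2 fell in limma, with 5 at an unadjusted p under 0.05. Of all tested probes, 22.4% rose and 25.1% fell there by adjusted p. The called falls were IRF8, at 1.92-fold, and IRF1, at 1.58-fold, the latter without a call when Mac_Dex replicate 1 was left out. With median-centring 4 rose and 2 fell in macrophages. The median changes were -0.24 and -0.11, beside -0.03 over all probes.

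With vehicle 18 of the 19 target genes were higher in macrophages, where 65.2% of all tested probes were higher on the deposited scale. With median-centring 15 were higher. That scaling sets the median of all probes to -0.20 in this comparison in place of 0.72, and no share of all probes is given for it. GBP1 was at least 10.6-fold and CXCL10 at least 10.99-fold higher, and IRF8 was 3.70-fold lower.

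**Figure D5:**
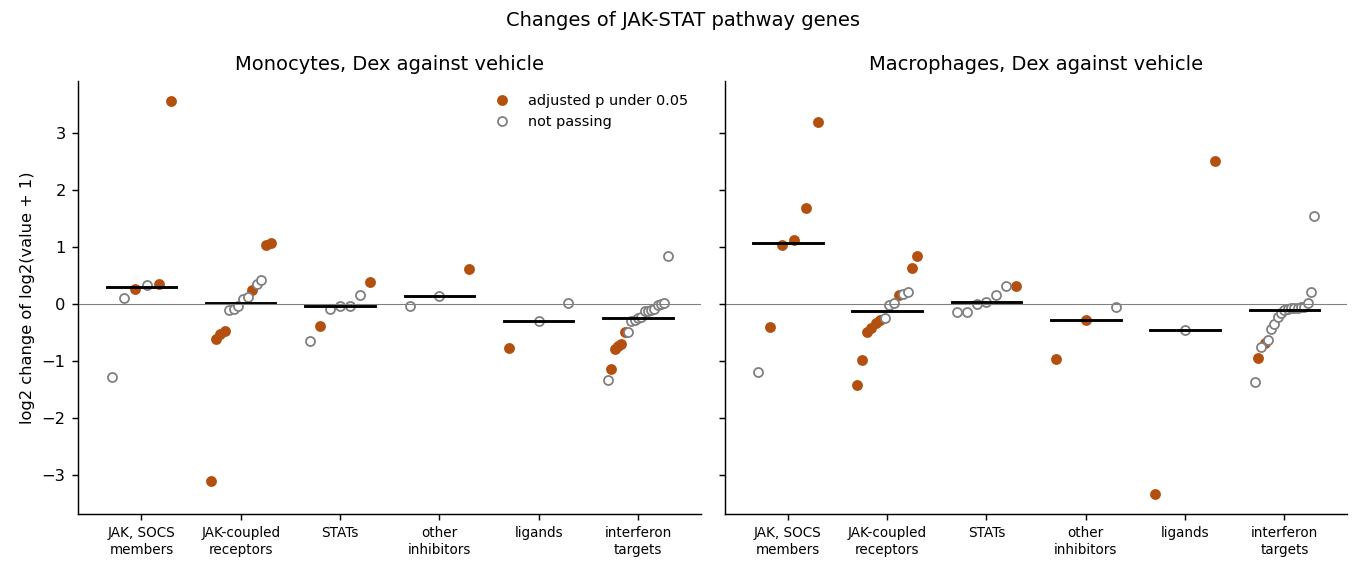
Log2 change with Dex on the log2(value + 1) scale in monocytes and in macrophages for the 6 tested Janus kinase and SOCS genes and 5 lists of pathway genes; points are genes, filled where the adjusted p is under 0.05, and bars are list medians. The median of the 6 genes is 0.29 in monocytes and 1.07 in macrophages, and the medians of the STATs are -0.04 and 0.03.

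Among the 6 tested genes, JAK1 and JAK2 had the most alike profiles over the 11 samples, with a Pearson r of 0.98 of log2(value + 1). TYK2 and CISH ran opposite, at -0.94. These values describe 4 groups on a scale shared within each sample. The tested probes most like JAK2 included NFKBIZ (r = 0.99) and KCNJ2 (0.97), and those most like JAK1 were NFKBIZ, MAPK14 and GZMA (0.96 each). The group means of NFKBIZ were 49.1, 87.9, 136 and 556 units in the order Mono_Vehicle, Mono_Dex, Mac_Vehicle and Mac_Dex. GZMA was under the floor in 3 of the 4 groups.

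TYK2 lay closest to IRAK2 (0.98), BCL6 (0.97) and IFNAR2 (0.97). IFNAR2, a chain of the type I interferon receptor, had means of 1041, 1014, 2225 and 1668 units, with its highest group Mac_Vehicle as for TYK2. SOCS1 lay closest to IL13RA1 (0.96), NFKBIA (0.96) and GNLY (0.94). CISH lay closest to IL1RAP (0.98), CFD (0.96) and CD3EAP (0.96), each higher in both monocyte groups than in either macrophage group. By Spearman's rho the closest 3 probes shared 0 with these for JAK1 and JAK2, 1 for TYK2 and CISH and 2 for SOCS1.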

How the data were processed

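RNA of 11 THP-1 samples was measured on a NanoString immune panel. The deposited signal is a linear value per probe that the authors normalized. Quality control used nSolver, per the labels of the series; how background was taken off, on which reference genes values were scaled and which version was run is not given in the sources used here. In each sample 100% of low values lay on a regular grid, so a value is a net count times a sample factor, but whole counts were not recovered and no count test was run.

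The 379 of 594 endogenous probes with a highest group mean of at least 20 units were tested with limma 3.58.1 (R 4.3.3) on log2(value + 1), all 4 groups in 1 fit, using lmFit and eBayes (mean-variance trend) and adjusting by Benjamini-Hochberg over the 379. An adjusted p under 0.05 was called. For a probe admitted through 1 group or 1 cell state alone, the direction against that group or state is not independent of the filter. Responses were compared by the interaction term. Folds are ratios of group means; a mean under 20 was set to 20 and the fold given as "at least". Errors are SD of samples or SE of the fit. The precision is set by the number of samples. The scripts were tested on simulated data. Tables and motif matches were made in Python 3.11.15.

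The 7 genes and the lists were chosen with earlier results of these data known. Named genes were the 7, up to 2 called rises and falls per list, for each Dex comparison and for the states with vehicle, the 3 probes most like each called gene, and FKBP5; some of these are not reported here. Other genes appear as markers, as values beside a count or, for PTPN6, IL6, IL10, IFNB1 and IFNG, were chosen after their values were seen. Alternatives were the pseudocount, the filter, the scaling, the fit and each sample left out. The labels do not say whether replicate numbers pair the samples. Deviations of same-numbered samples from their group means correlated from -0.41 to 0.23. In groups of 2 or 3 samples such deviations are tied to each other, so these values cannot decide whether the samples are paired. Replicates of a group correlated at 0.988 or more (Pearson r over the tested probes).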

Additional observations from a re-analysis of the deposited data

Results flagged for a closer look

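The difference between the Dex responses of macrophages and monocytes, tested by the interaction term in limma, was past the threshold for 3 of the 6 tested genes and for 25.9% of all tested probes. It was 0.86 (log2) for JAK1 and 0.68 for JAK2, with both macrophage Dex samples above all 3 vehicle samples and all 3 monocyte Dex samples above all 3 vehicle samples. It was -0.50 for TYK2, with both macrophage Dex samples under the vehicle samples and overlapping groups in monocytes. The summed NK marker list also differed between these groups, and its part in the differences was not tested. In that list GNLY rose with Dex in both states, and GZMA in macrophages only. NCAM1, the other tested gene of the list, fell with Dex in macrophages, from 3452 to 2791 units. In monocytes NCAM1 went from 1602 to 1516 units, which was not called.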

How the results depend on the processing

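Of 584 recomputed log2 changes of the 6 genes, 546 kept their direction and their side of the threshold. Between the states with vehicle, JAK1 went to -0.60 with median-centring and -0.62 with quantile normalization and JAK2 to -0.38 and -0.40; with Dex, TYK2 went to -0.34 and -0.35. Those scalings set the median of all probes to -0.20 and -0.29 with vehicle in place of 0.72. In the difference of responses, SOCS1 went to 0.11 with a pseudocount of 8, CISH to -0.14 and SOCS3 to -0.039 with quantile normalization, and SOCS3 ran from -0.80 to 0.95 as single samples were left out; none of these values was called. The cause of these changes was not tested. The number of the 6 called stayed within 1.5 times its value in all 99 recomputed counts, with 2 to 4 called for monocytes and 4 to 6 for macrophages. Whether replicate numbers pair the samples could not be decided. With the replicate block, a term for that number in the fit, the calls numbered 2 in monocytes and 5 in macrophages. They numbered 6 and 5 between the states with vehicle and with Dex, and 2 for the difference. JAK1 in monocytes (0.30, adjusted p = 0.0618), SOCS3 between the states with Dex (-1.55, adjusted p = 0.110) and the TYK2 difference (-0.45, adjusted p = 0.117, all limma) were then not called. Requiring a highest mean of 50 left out SOCS3 and CISH, which then have no value. Of 990 recomputed counts of the other lists, 131 moved by over 1.5 times. The Mac_Dex group rests on 2 samples, and values under 20 units lie near the negative controls.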
